A study of Mus musculus with 4 samples.

Results

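The genes of the transforming growth factor-beta (TGF-beta) and bone morphogenetic protein (BMP) pathway were followed through an m6A map of the mouse spinal cord after nerve injury. They were taken from the deposited peak tables by symbol, as every gene whose name begins with Smad, Bmp, Tgfb, Tgfbr, Gdf, Ltbp or Smurf and a digit, or with Bmpr or Acvr. The rule took 42 genes of the 13558 named in the 3 tables. They held 116 of the 34406 peaks in the sham list, 109 of the 33556 peaks in the CCI list and 13 of the 4812 rows in the table of differential peaks. *Bmp1*, *Bmp2k* and *Tgfb1i1* are taken by their letters, being neither ligands, receptors nor Smads, and were kept as a group of their own.

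TGF-beta, BMP, growth differentiation factor (GDF) and activin ligands are secreted dimers that bring type II and type I receptor kinases together on the cell surface. The type I receptor phosphorylates receptor-regulated Smads, Smad2 and Smad3 in the TGF-beta and activin branch and Smad1, Smad5 and Smad9 in the BMP branch, which enter the nucleus with the common partner Smad4. Smad6, Smad7 and the Smurf ubiquitin ligases limit the signal. In the spinal cord the pathway is best known for dorsal patterning of the embryo and for astrocyte and microglial responses to injury. N6-methyladenosine (m6A) is a methyl mark on adenosines of mRNA, often found near the stop codon and in the 3'-UTR.

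The spinal cords came from C57BL/6J mice, 6 to 8 weeks old, 7 days after surgery. In the chronic constriction injury (CCI) group the sciatic nerve was loosely tied with silk thread, and sham mice had the same operation without the ties. Methylated RNA immunoprecipitation sequencing (MeRIP-seq) was done with 1 m6A immunoprecipitation (IP) library and 1 input library in each group, so differences between the groups are unreplicated and carry no p-value. The number of mice behind a library is not given in the sources used here. The fold enrichment of a peak is the IP signal over the input signal within 1 library pair, and no read counts came with the tables, so the depth is unknown. In whole spinal cord, fewer cells of a type and less RNA per cell cannot be told apart.

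The tissue label was checked on which marker genes held a peak. All 5 neuronal, 3 motor neuron, 4 astrocyte, 4 oligodendrocyte and 4 microglial markers did so in both lists, and so did 3 of 4 posterior Hox genes of the cord. Endothelial and meningeal markers held one for 3 of 4 genes in sham and 2 of 4 in CCI. No marker of forebrain, liver or muscle held one. Of 4 sensory ganglion markers, 2 (*Mrgprd* and *Scn10a*) held a peak in the sham list and 0 in the CCI list, and the part of this in the results was not tested.

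Most of the family carried m6A peaks in both groups. In the mouse RefSeq annotation (GRCm38.p6) the rule takes 54 symbols, of which 53 are protein-coding. A peak was listed for 42 of them in the sham list and for 41 in the CCI list, the difference being *Gdf7*. No peak was listed for *Acvr1c*, *Bmp5*, *Bmp8a*, *Bmp10*, *Bmp15*, *Gdf2*, *Gdf3*, *Gdf5*, *Gdf15*, *Ltbp2*, *Tgfbr3l* and the pseudogene *Bmp4-ps*, and a missing peak does not show that a transcript is unmethylated. The number of peaks per gene had a median of 2.00 in both lists, the same as over all genes, with a maximum of 7 peaks on *Ltbp3*, a maximum that *Smad3* shared in the sham list.

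The peaks lay mainly in 3'-UTRs, as they did across the transcriptome. In the sham list 54 of 116 peaks were annotated there, or 46.6% (95% Wilson interval 37.7 to 55.6), against 48.9% over all genes. In the CCI list it was 54 of 109 peaks, or 49.5% (40.3 to 58.8), against 49.8%. These intervals cover counting error only, and peaks of 1 gene are not independent. 5'-UTR peaks took a larger share than over all genes, with 30 peaks or 25.9% (18.8 to 34.5) against 16.1% in the sham list and 28 peaks or 25.7% (18.4 to 34.6) against 14.7% in the CCI list. When each gene and region was counted once, the sham share was 27.1% (18.1 to 38.5) against 21.2%, and the CCI share was 25.4% (16.5 to 36.9) against 19.9%, with both background values inside the intervals. Among peaks at a false discovery rate of 1e-05 or less, the sham share was 21.2% (13.8 to 31.0) against 15.3%. The CCI share was then 20.3% (12.9 to 30.4) against 14.1%, again with both background values inside. A 5'-UTR peak was listed in both groups for 16 genes, among them *Tgfb1*, *Tgfb3*, *Acvr1*, *Bmpr1b*, *Smurf1*, *Smurf2* and the Smads *Smad1*, *Smad3*, *Smad4*, *Smad6*, *Smad7* and *Smad9*.

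**Figure D1:**
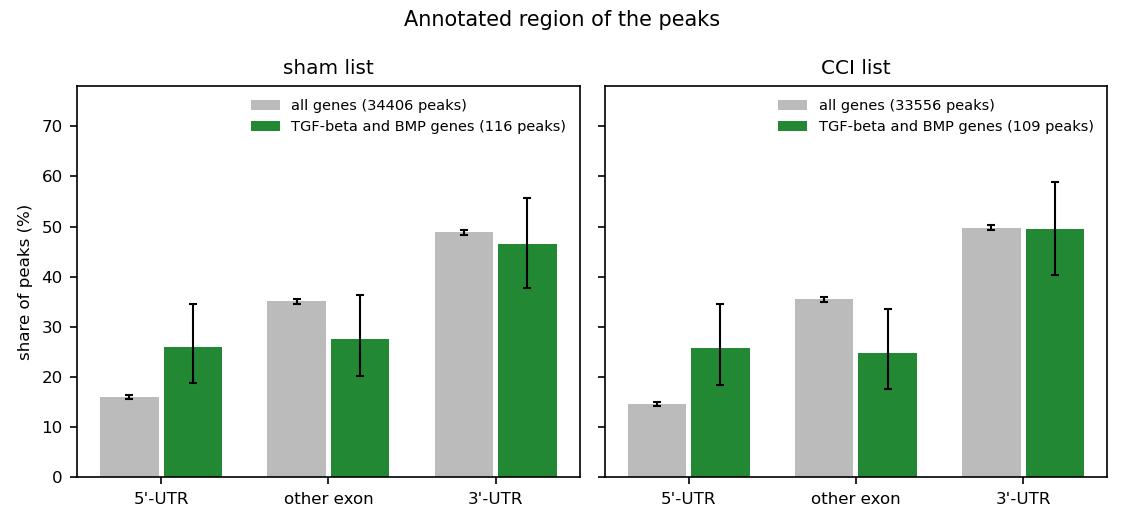
Share of peaks (%) by annotated region in the sham list (left) and the CCI list (right), with grey bars for all genes, green bars for TGF-beta and BMP pathway genes and whiskers for 95% Wilson intervals. The 5'-UTR bar of the pathway genes stands at 25.9% in sham and 25.7% in CCI, above 16.1% and 14.7% for all genes, while the 3'-UTR bars of both sets lie close together.

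The enrichment was also highest in 5'-UTRs. In the sham list the median fold enrichment of the pathway genes was 13.9 over 30 5'-UTR peaks and 5.43 over 54 3'-UTR peaks, against 8.21 and 5.81 over all genes. In the CCI list the medians were 13.6 and 5.20, against 8.51 and 5.92. Part of these high values came with weak support. Of 51 sham peaks of the family at a fold enrichment of 10 or more, 13 had a false discovery rate (FDR) above 1e-05 in the authors' test of IP against input, as had 7 of 43 in the CCI list. These are 25.5% and 16.3%, against 17.2% and 14.9% over all genes. Several carried one and the same pair of values. A fold enrichment of 13.9 with a log10 FDR of -2.42 was listed for *Bmpr1a*, *Gdf7*, *Ltbp3* and *Smurf2* and for 211 sham peaks in all.

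To compare the groups, each sham peak was matched with the CCI peak that shared most of its exonic bases, where each was the other's best match. Of the sham peaks of the family, 97 of 116 overlapped a CCI peak, or 83.6% (75.8 to 89.3), against 83.9% over all genes. Of the CCI peaks, 96 of 109 overlapped a sham peak, or 88.1% (80.7 to 92.9), against 87.7%. This gave 92 matched pairs in 41 genes, and in 15 of them the borders were identical in both lists.

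No shift of the family as a whole was seen. The log2 ratio of CCI over sham fold enrichment had a median of 0.00 over the 92 pairs, with quartiles of -0.41 and 0.42, against a median of 0.03 and quartiles of -0.37 and 0.43 over 27391 pairs of all genes. It was above 0 in 45 pairs and below 0 in 45. A difference of at least 2-fold (a log2 ratio of 1 or more either way) was found upward in 10 pairs, or 10.9%, and downward in 6, or 6.52%. Over all genes these shares were 8.58% upward and 7.25% downward, so the counts of the family were near the background. Inside the range that holds 95% of all pairs (-1.59 to 1.75) lay 86 of the 92.

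**Figure D2:**
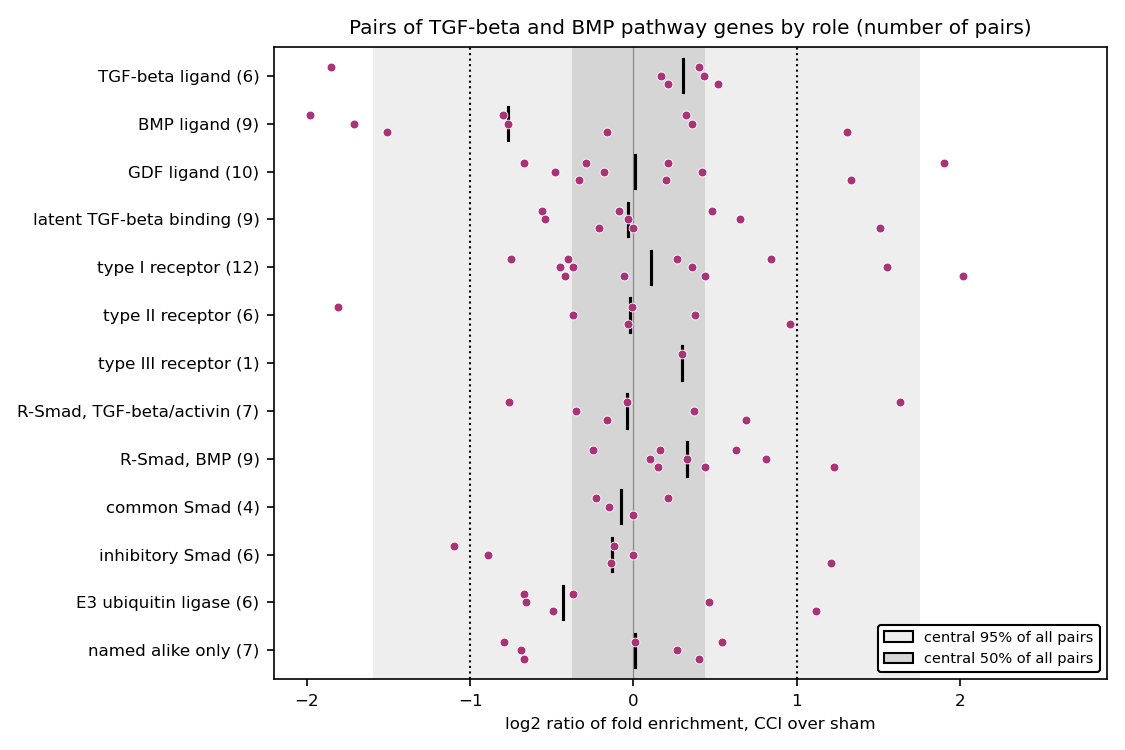
Log2 ratio of CCI over sham fold enrichment for the 92 pairs, 1 point per pair, by the role of the gene, with the number of pairs in brackets and a black bar at each median. Grey bands hold the central 95% (-1.59 to 1.75) and 50% (-0.37 to 0.43) of all 27391 pairs and dotted lines mark 2-fold. The BMP ligands have the lowest median, -0.77, and among roles with more than 6 pairs the receptor-regulated Smads of the BMP branch have the highest, 0.33.

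Of the 26 genes with at least 2 pairs, 4 were higher in CCI at every pair (*Smad1*, *Smad5*, *Gdf11* and *Acvrl1*). Another 8 were lower at every pair (*Acvr1*, *Bmp6*, *Bmpr1b*, *Gdf1*, *Gdf10*, *Smad2*, *Smad6* and *Tgfbr2*). The other 14 had pairs of both signs or at 0. Over all 6864 genes with at least 2 pairs, 17.7% were higher at every pair and 15.0% lower, and the pairs of *Gdf1* are overlapping listings of 1 region.

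Among the TGF-beta ligands, which signal through Tgfbr1 and Tgfbr2, 5 of 6 pairs were higher in CCI, against 51.8% of all pairs. Their median log2 ratio was 0.30, and 4 of the 6 pairs were on *Tgfb3*. *Tgfb1* (chr7:25687002-25705077, plus strand) carried a single 5'-UTR peak in sham at a fold enrichment of 25.4. Its CCI partner stood at 36.5, a log2 ratio of 0.52, and a short second CCI peak of 2.26 covered the end of the sham peak. *Tgfb2* (chr1:186622792-186705989, minus strand) had a 3'-UTR peak at 8.57 in sham and 9.90 in CCI, a log2 ratio of 0.21, with a second CCI peak of 5.00 under the same sham peak. Its strongest sham peak, in exon 1, had a fold enrichment of 24.4 and no overlap in the CCI list. It was 180 exonic bases long, with a log10 FDR of -5.13.

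*Tgfb3* (chr12:86056745-86079041, minus strand) held 4 peaks in each list, all annotated in the 5'-UTR. The strongest, a single block of 181 bases at the transcription start, stood at 75.5 in sham and 99.6 in CCI, a log2 ratio of 0.40. A second, spliced peak of 174 bases overlapped it by 25 bases and ran beyond the start of the gene, at 73.2 in sham and 20.3 in CCI, a log2 ratio of -1.85. So peaks at this start site that share part of their bases differed in opposite directions between the groups. The remaining pairs of *Tgfb3* were at 4.67 and 6.31, and at 2.22 and 2.49.

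BMP ligands, which include the dorsalising signals of the embryonic cord, were lower in CCI in 6 of 9 pairs, against 47.8% of all pairs. Their median log2 ratio was -0.77, against 0.03 over all pairs. Downward differences of 2-fold were found in 3 of the 9 (*Bmp2*, *Bmp3* and *Bmp8b*) and an upward one in 1 (*Bmp4*), against 7.25% and 8.58% of all pairs. This role also differed most in the number of listed peaks, with 19 in sham and 11 in CCI over the same 6 genes. Of these, 6 sham and 2 CCI peaks were listed for *Bmp8b*, most of them annotated in an exon of another gene.

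*Bmp2* (chr2:133552159-133562885, plus strand) had 4 sham peaks and 1 CCI peak. The exonic pair, from base 133561003 in sham, stood at 36.0 in sham and 12.6 in CCI, a log2 ratio of -1.51. Both values were well supported, with log10 FDRs of -69.3 and -27.0. The 3 sham peaks without an overlap lay in the 5'-UTR and were weak, at 2.52, 3.49 and 4.65. *Bmp2* was thus lower in CCI at its only matched peak and had fewer listed peaks.

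*Bmp3* (chr5:98854415-98884396, plus strand), which antagonises other BMPs, had an exonic peak at 36.6 in sham and 11.2 in CCI, a log2 ratio of -1.71. Its 3'-UTR pair went the other way, at 3.36 and 4.32. A 5'-UTR peak at 14.1, the highest unmatched CCI peak of the family, had a log10 FDR of -3.12.

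*Bmp8b* (chr4:123105165-123126091, plus strand) had 6 sham peaks and 2 CCI peaks. Its only pair stood at 26.7 in sham and 6.78 in CCI, a log2 ratio of -1.98, the lowest of the family. The assignment is uncertain: 5 of the sham peaks and both CCI peaks were annotated in an exon of another gene identifier inside the locus. Of these, 3 sham peaks at 16.3 or 17.4 lay over *Oxct2b*, a gene on the same strand, and overlapped each other.

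*Bmp4* (chr14:46383520-46390669, minus strand) went the other way. Its 3'-UTR peak stood at 24.4 in sham and 60.5 in CCI, a log2 ratio of 1.31. The CCI peak also reached into a second sham peak, in the last exon, at 6.47. *Bmp6* had a 5'-UTR pair at 8.13 and 4.78 and a 3'-UTR pair at 3.93 and 2.26, with log2 ratios of -0.77 and -0.80. Its peaks were weakly supported, with log10 FDRs of -5.04 and -4.14 in the 5'-UTR and -4.93 and -2.45 in the 3'-UTR. The 5'-UTR peaks covered 511 bases in sham and 61 in CCI. *Bmp7* had 2 pairs in the 3'-UTR, at 7.86 and 9.79 (log2 ratio 0.32) and at 3.69 and 3.31 (-0.16), and 1 unmatched sham peak in exon 1 at 2.69.

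The GDF ligands had 10 pairs with a median log2 ratio of 0.01, and 2 of the 10 were at least 2-fold higher in CCI. *Gdf11* (chr10:128882295-128891718, minus strand), a ligand that limits neuron number in several tissues, was higher at all 4 pairs. Its strongest peak, spliced into the 3'-UTR over 1195 exonic bases in sham and 1136 in CCI, stood at 32.8 in sham and 82.7 in CCI, a log2 ratio of 1.33. The other 3 pairs were at 22.7 and 26.1, at 7.06 and 8.17, and at 2.94 and 3.92, with log2 ratios of 0.20, 0.21 and 0.42. The 2-fold difference on *Gdf11* was therefore held by 1 peak of 4.

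*Gdf9*, best known from the oocyte, had an exonic pair at 3.49 and 13.0, a log2 ratio of 1.90, and a 3'-UTR sham peak at 7.55 without an overlap. The log10 FDRs of the pair were only -2.94 and -4.02. *Gdf6* had 1 weakly supported pair at 17.4 and 10.9. *Gdf10* had an exonic pair at 15.8 and 12.6 and a 3'-UTR pair at 3.28 and 2.89, with log2 ratios of -0.33 and -0.18. *Gdf7* had 2 short sham peaks at 11.6 and 13.9 with log10 FDRs of -1.84 and -2.42, both also over *Ldah*, a gene on the opposite strand, and no CCI peak.

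*Gdf1* (chr8:70329817-70331587, plus strand), a Nodal partner in left-right patterning, was covered by 2 overlapping peaks in each list. They stood at 17.7 and 17.8 in sham and at 14.5 and 12.8 in CCI, with log2 ratios of -0.29 and -0.48. These peaks had among the strongest support in the family, with log10 FDRs listed as minus infinity in both groups, and they lie also over *Cers1*, which shares a transcript with *Gdf1*. The longer peak begins before the listed start of *Gdf1*, at base 70329555 in sham and 70329585 in CCI. *Cers1* is on the same strand, and which of these genes carries the mark was not tested. The sequence here is shown because, among peaks reaching into the start windows searched, this one had the strongest support. Of the 42 genes, 29 had a RefSeq start window (250 bases before to 50 after the start, GRCm38.p6), and among the windows searched a peak reached into that of 7 genes (*Acvr1*, *Bmp6*, *Bmpr1a*, *Bmpr1b*, *Gdf1*, *Smad1* and *Smad6*). *Smad2*, *Smad4* and *Smad7* were not part of this search. The letters GGAC, and the longer GGACT that contains them, were searched on the strand of the gene only, since the mark is on RNA. Within the peaks GGAC was found for *Gdf1* and *Bmp6* and, among the genes searched, GGACT for *Gdf1* alone. Of all 32851 windows of 300 bases, 65.6% hold GGAC and 26.1% hold GGACT, so a match is common, and a match is a description of the letters and not a methylated site. In the lines that follow, the motif is in capitals. The first line is from chr8:70329764-70329793 on the plus strand, just after the RefSeq start, the second from chr8:70329597-70329626, and both motifs lie inside the peak of either group. Both lines lie before the start of *Gdf1* in the peak lists, base 70329817.
Gdf1 start: acccttctccagGGACTctggctgccagca
Gdf1 upstream: ttcagccatccaGGACTctatcccatccta
The next is from chr13:38345648-38345677 on the plus strand, before the RefSeq start, and its GGAC is inside the sham peak of *Bmp6* (bases 38345257 to 38345767) but beyond the shorter CCI peak (38345437 to 38345497).
Bmp6 upstream: cagtcctgcctaGGACacacctggctcact

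Latent TGF-beta binding proteins hold newly made TGF-beta in the extracellular matrix. Their 9 pairs had a median log2 ratio of -0.03. *Ltbp3* (chr19:5740904-5758532, plus strand) carried 7 peaks in each list and 6 pairs. The strongest, at the 3' end, stood at 37.0 in sham and 25.5 in CCI, a log2 ratio of -0.54. A second listing that shares 106 bases with it stood at 14.6 and 9.90, a log2 ratio of -0.56.

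The 2-fold difference on *Ltbp3* was in the 5'-UTR, where a peak stood at 5.10 in sham and 14.5 in CCI, a log2 ratio of 1.51. The CCI list held another 5'-UTR peak there, at 13.6, without an overlap in sham. Its support was weak, with a log10 FDR of -2.96, a pair of values listed for 71 CCI peaks in all. Elsewhere on the gene the groups were close, at 20.8 and 19.6 in the larger exonic peak, 2.53 and 2.19 in the smaller, and 13.9 and 13.6 in the first 5'-UTR peak. *Ltbp1* had a single 3'-UTR pair at 16.5 and 23.0, a log2 ratio of 0.48. *Ltbp4* had weak exonic pairs at 2.10 and 3.29 and at 1.98 in both groups.

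**Figure D3:**
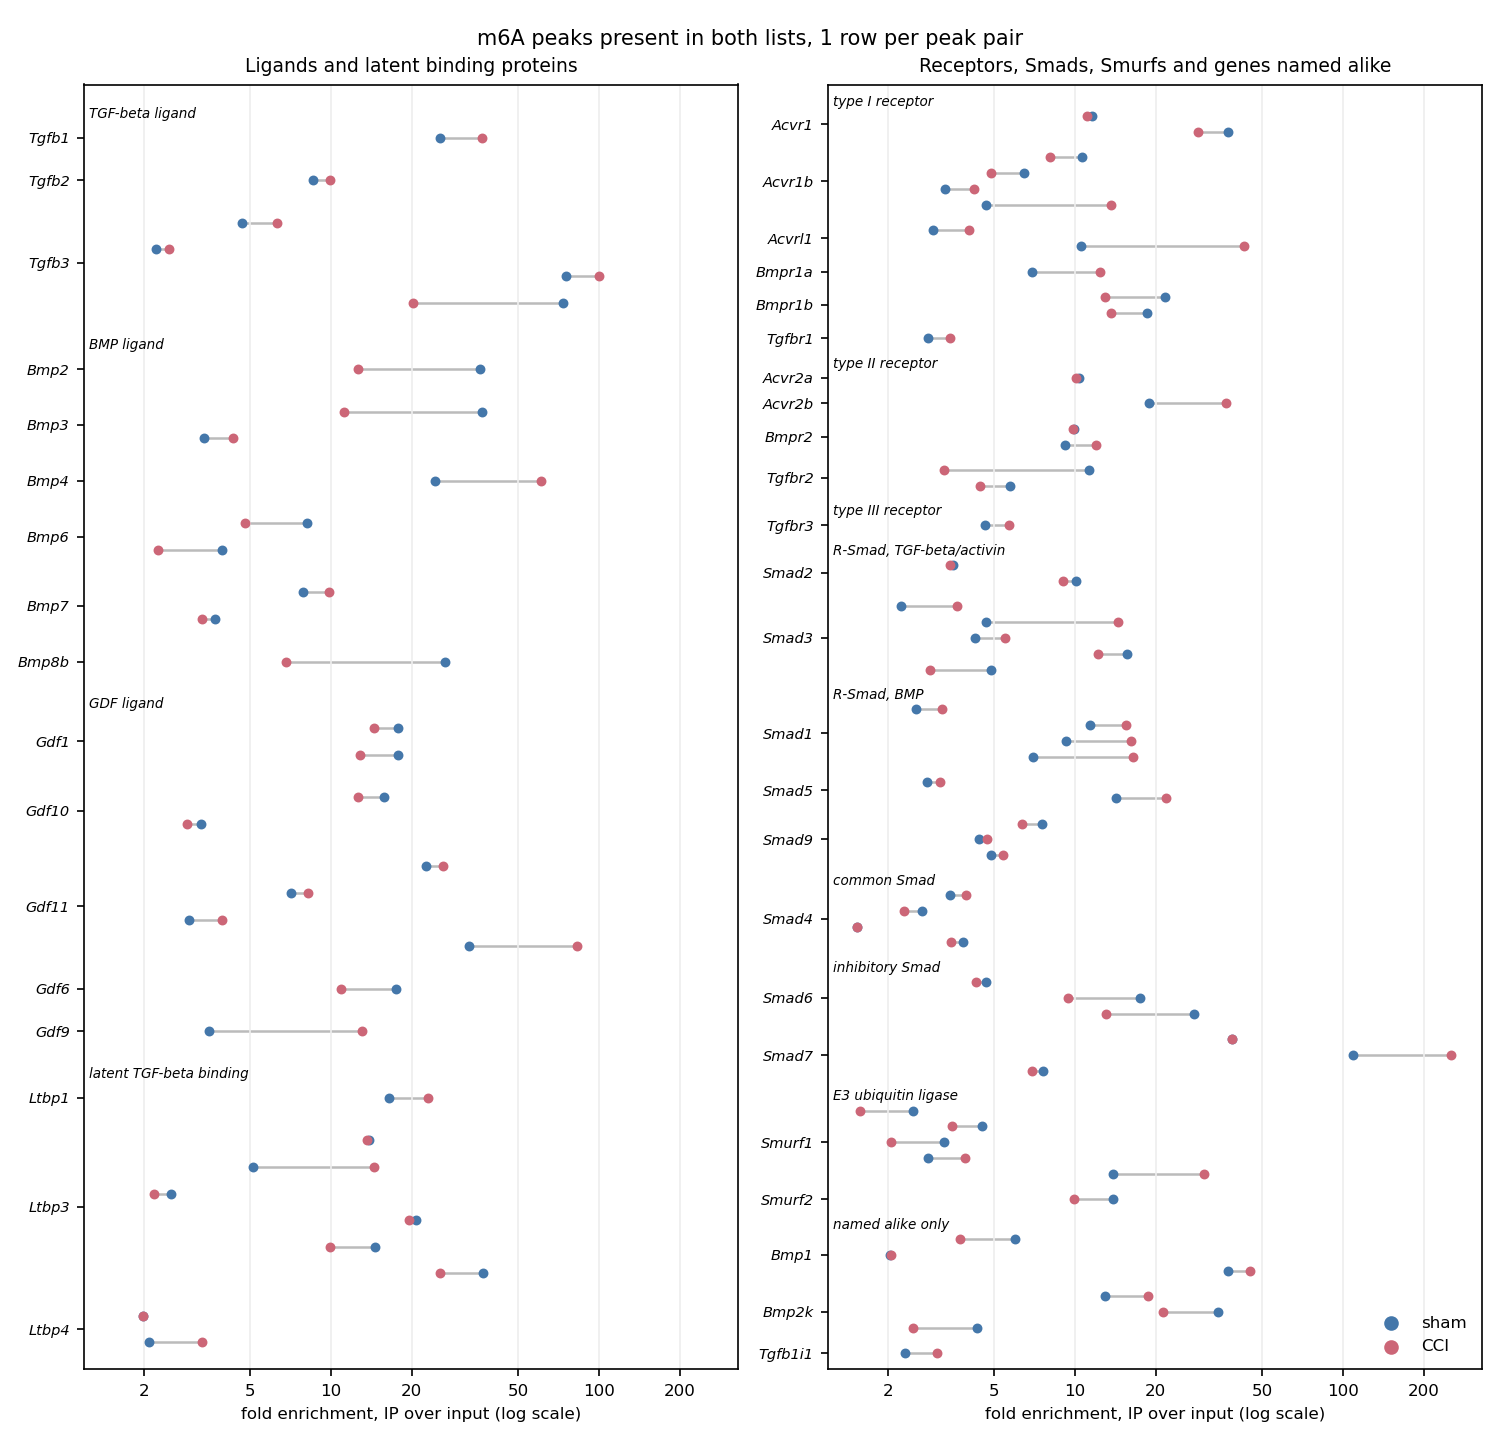
Fold enrichment of IP over input (log scale) of the 92 matched pairs, 1 row per pair, with sham in blue and CCI in red, for ligands and latent binding proteins (left) and the remaining roles (right). The longest bars to the right, toward CCI, are *Acvrl1* (10.5 to 42.7) and *Gdf9* (3.49 to 13.0), and the longest toward sham are *Bmp8b* (26.7 to 6.78) and *Tgfb3* (73.2 to 20.3).

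Type I receptors are the kinases that phosphorylate Smads. Their 12 pairs split evenly by sign, with a median log2 ratio of 0.11, and the 2 that differed by 2-fold were higher in CCI. *Acvrl1* (chr15:101128522-101145336, plus strand), the endothelial ALK1 receptor, had the largest upward difference of the family. Its 3'-UTR peak at the gene's end stood at 10.5 in sham and 42.7 in CCI, a log2 ratio of 2.02, with log10 FDRs of -9.11 and -12.4. The other 3'-UTR pair stood at 2.95 and 4.01, a log2 ratio of 0.44.

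*Acvr1b* (chr15:101174067-101213679, plus strand), the activin receptor ALK4, held 5 3'-UTR peaks in each list. The last, which reaches the end of the gene in CCI, stood at 4.65 in sham and 13.6 in CCI, a log2 ratio of 1.55. The pair before it stood at 3.26 and 4.19, a log2 ratio of 0.36. Further upstream the direction was the reverse, with 10.6 and 8.03 in the largest peak and 6.47 and 4.84 in the next, log2 ratios of -0.40 and -0.42. Along this 3'-UTR the pairs near the end were thus higher in CCI and those near the coding region lower.

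*Bmpr1a* had a 3'-UTR pair at 6.93 and 12.4, a log2 ratio of 0.84. Its strongest sham peaks were a pair of overlapping listings at the start, at 13.9 and 16.3, with log10 FDRs of -2.42 and -3.01 and no CCI overlap. *Bmpr1b* was lower at both of its pairs, at 21.7 and 12.9 in the 3'-UTR (log2 ratio -0.75) and at 18.6 and 13.6 in the 5'-UTR (-0.45). The 5'-UTR pair was weakly supported, with log10 FDRs of -3.60 and -2.96. *Acvr1* (ALK2) had a 5'-UTR pair at 37.2 and 28.7, at a start that *Upp2* also overlaps, and a 3'-UTR pair at 11.6 and 11.1, with log2 ratios of -0.37 and -0.06. *Tgfbr1* had 1 pair, in the 3'-UTR, at 2.82 and 3.41, and a CCI peak in exon 4 at 4.04 without an overlap.

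Type II receptors phosphorylate and activate the type I receptor. *Tgfbr2* (chr9:116084293-116175265, minus strand) had the lowest ratio of their 6 pairs. Its 3'-UTR peak stood at 11.3 in sham and 3.23 in CCI, a log2 ratio of -1.81, with log10 FDRs of -45.7 and -7.46. The CCI peak, of 211 bases, lay inside the sham peak, of 481 exonic bases, and covered 43.9% of it. Its exonic pair stood at 5.70 and 4.41, a log2 ratio of -0.37.

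*Acvr2b* was the pair nearest to 2-fold without reaching it, at 18.8 and 36.5 in the 3'-UTR, a log2 ratio of 0.96. The nearest of those past 2-fold was on *Smad6*, with a log2 ratio of -1.10. *Acvr2a* stood at 10.3 and 10.1. *Bmpr2* had an exonic pair at 9.92 and 9.85 and another at 9.20 and 12 (log2 ratio 0.38), and unmatched peaks at 8.72 in the sham 5'-UTR and 3.36 in the CCI 3'-UTR. *Tgfbr3*, the co-receptor betaglycan, had 1 pair at 4.62 and 5.67, a log2 ratio of 0.30.

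Receptor-regulated Smads of the BMP branch were higher in CCI at 8 of 9 pairs, with a median log2 ratio of 0.33, and 1 of the 9 reached 2-fold. Over all genes 51.8% of pairs were higher, and 4 of the 9 pairs were on *Smad1*. *Smad1* (chr8:79338395-79399518, minus strand) was higher at all 4 pairs. In the 5'-UTR a spliced peak stood at 6.97 in sham and 16.4 in CCI, a log2 ratio of 1.23, and the exonic peaks stood at 9.26 and 16.2 (0.81) and at 11.4 and 15.5 (0.44). The 3'-UTR peak stood at 2.54 and 3.20 (0.33), so the ratio grew along *Smad1* from the 3' end to the 5' end. All 8 peaks behind these pairs had log10 FDRs of -27.2 or lower.

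*Smad5* (chr13:56703010-56742377, plus strand) had a spliced exonic peak at 14.2 in sham and 21.9 in CCI, a log2 ratio of 0.63, and a smaller one at 2.80 and 3.13 (0.16). *Smad9* differed little, at 7.53 and 6.33 in the 5'-UTR, 4.37 and 4.68 in exon 2 and 4.87 and 5.40 in the 3'-UTR, with log2 ratios of -0.25, 0.10 and 0.15. A CCI peak in its exon 5 at 2.87 had no overlap.

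In the TGF-beta and activin branch, *Smad2* was nearly equal in the groups, with 10.1 and 9.05 in the 3'-UTR and 3.49 and 3.40 in an exon. *Smad3* (chr9:63646767-63757994, minus strand) held 7 sham and 5 CCI peaks. In the middle of its 3'-UTR the sham list had separate peaks of 390 and 391 bases, at 20.5 and 4.65, where the CCI list had 1 peak of 959 bases at 14.4. Matching by shared bases set 14.4 against 4.65, a log2 ratio of 1.63, whereas against the other sham peak it was -0.51. The choice of partner rests on 391 against 390 shared bases, and the sign is the opposite against the stronger sham peak. The other *Smad3* pairs stood at 2.24 and 3.62, at 4.22 and 5.46 and at 15.6 and 12.2 in the 3'-UTR, and at 4.86 and 2.87 in the 5'-UTR, with log2 ratios of 0.69, 0.37, -0.35 and -0.76.

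**Figure D4:**
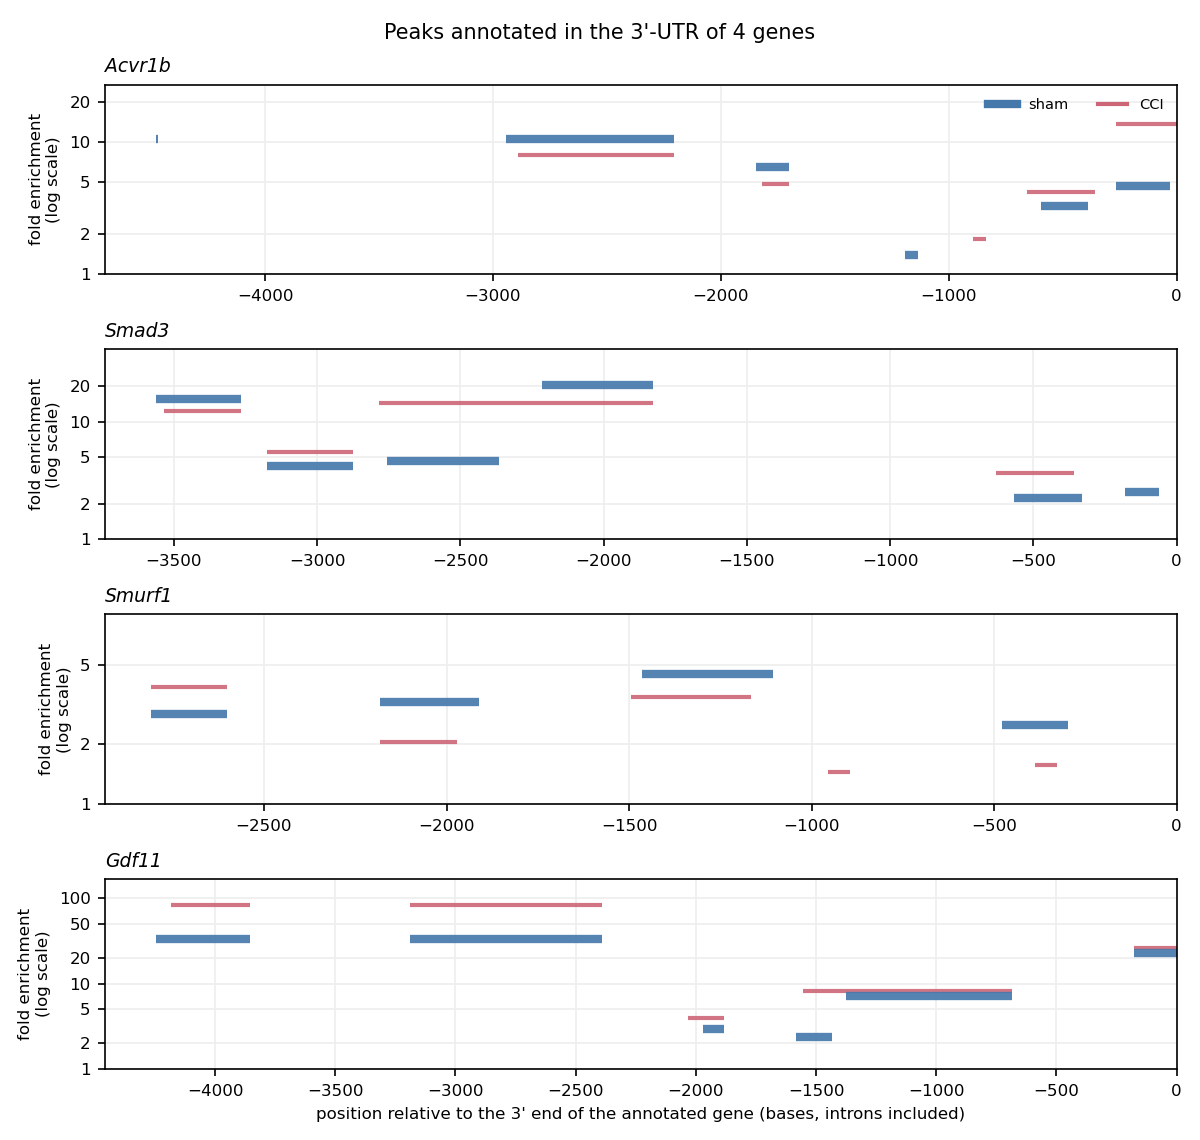
Peaks annotated in the 3'-UTR of *Acvr1b*, *Smad3*, *Smurf1* and *Gdf11* by position in bases from the 3' end of the annotated gene and by fold enrichment (log scale), with sham as thick blue bars and CCI as thin red bars. In *Smad3* 1 CCI peak at 14.4 spans the sham peaks at 4.65 and 20.5, and in *Acvr1b* the CCI peak at the end stands at 13.6 above the sham peak at 4.65.

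*Smad4*, the common partner, had low and nearly equal values at all 4 pairs, with log2 ratios between -0.23 and 0.21 and fold enrichments between 1.54 and 3.92. Its strongest CCI peak, in the 5'-UTR at 9.90, had no overlap in sham and a log10 FDR of -1.86.

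The inhibitory Smads held the strongest peak of the family. *Smad7* (chr18:75367529-75395935, plus strand), an inhibitor induced by TGF-beta itself, had a 5'-UTR peak at 109 in sham and 252 in CCI, a log2 ratio of 1.21. The CCI peak began upstream and took in a weak sham peak at 2.56. A second 5'-UTR peak of *Smad7* was equal, at 38.4 and 38.5, and the 3'-UTR peak stood at 7.56 and 6.88. *Smad6* (chr9:63953076-64022059, minus strand), which acts mainly on BMP signals, was lower at all 3 pairs, at 27.9 and 13.0 at the start (log2 ratio -1.10), at 17.4 and 9.38 in a second pair (-0.89), annotated in the 5'-UTR in sham and in exon 1 in CCI, and at 4.65 and 4.27 in the 3'-UTR (-0.12). All peaks of *Smad6* had FDRs above 1e-05 but the strongest sham one, at a log10 FDR of -6.06.

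The Smurf ligases ubiquitinate receptors and Smads. *Smurf1* (chr5:144876495-144965839, minus strand) had a spliced 5'-UTR peak at 13.9 in sham and 30.2 in CCI, a log2 ratio of 1.12. In its 3'-UTR 3 of 4 pairs were lower, at 2.49 and 1.57, 4.48 and 3.46, and 3.24 and 2.05, and the one farthest from the end was higher, at 2.82 and 3.87. *Smurf2* had 1 pair, at the start, at 13.9 and 9.90, with log10 FDRs of -2.42 and -1.86.

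The 3 genes taken by their letters had 7 pairs, none at 2-fold. *Bmp1*, a protease that processes procollagen and chordin, stood at 37.2 and 44.8 in the 5'-UTR, 2.04 and 2.06 in an exon and 5.98 and 3.71 in the 3'-UTR. *Bmp2k*, a kinase of the endocytic machinery, had overlapping 3'-UTR peaks that also lie over *Paqr3*, at 34.0 and 21.3 (log2 ratio -0.67) and at 12.9 and 18.7 (0.54). *Tgfb1i1*, a focal adhesion adaptor, stood at 2.32 and 3.06.

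The table of differential peaks listed 13 rows in 10 genes of the family, with 2 rows each for *Acvr1b*, *Gdf1* and *Smad1* and 1 each for *Bmp2*, *Bmp6*, *Gdf10*, *Ltbp3*, *Smad5*, *Smurf1* and *Tgfbr2*. Of the 92 pairs, 14 overlapped such a row, or 15.2%, against 15.8% of the pairs of all genes. Pairs of the family were therefore listed about as often as pairs of all genes. Of the family's pairs past 2-fold, only those of *Bmp2*, *Tgfbr2* and the 5'-UTR of *Smad1* overlapped a row. The largest either way, *Acvrl1* (log2 ratio 2.02) and *Bmp8b* (-1.98), did not. On *Acvr1b* the rows lay over the pairs at -0.40 and 0.36, not the one at 1.55.

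Genes of the same pathway outside the rule were taken from 7 lists, chosen with earlier results of these data known. Of 94 genes, 74 had a sham peak and 72 a CCI peak, and of their 173 pairs 11 were at least 2-fold higher in CCI and 15 at least 2-fold lower, against 8.58% and 7.25% of all pairs. The median log2 ratio over the 173 pairs was 0.01. The textbook target genes had 5 pairs at 2-fold higher and 1 at 2-fold lower of 22, beside the same 8.58% and 7.25% of all pairs. Their median was 0.21 beside 0.03 over all pairs. Those higher were *Id3* (3.18 and 15.1, log2 ratio 2.25), *Msx1* (7.06 and 29.7, 2.07), *Hey1* (2.76 and 11.5, 2.06), *Id2* (13.5 and 43.3, 1.68) and *Atoh8* (18.2 and 49.0, 1.43), all of them transcriptional regulators that BMP signals can induce. *Id1*, of the same family of inhibitors of differentiation, was lower, at 6.39 and 2.91 (-1.13). Of the 22 pairs of the target genes, 12 were higher and 10 lower. The *Msx1* peak also lies over its antisense gene *Msx1os*, and the *Hey1* peak over another annotated gene.

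Of 24 pairs of the extracellular antagonists and modulators, 13 were higher in CCI and 11 lower, with a median log2 ratio of 0.11. At least 2-fold higher were 2, against 8.58% of all pairs, on *Chrd* (3.81 and 14.2, log2 ratio 1.90) and *Nbl1* (13.9 and 28.7, 1.05). At least 2-fold lower were 3, against 7.25%, on *Nog* (8.87 and 4.17, -1.09), *Grem1* (23.2 and 10.9, -1.09) and the follistatin-like gene *Fstl1* (27.9 and 9.38, -1.57). Support was weak for both *Grem1* peaks (log10 FDRs -4.82 and -2.28), the sham peak of *Nbl1* (-2.42) and the CCI peak of *Fstl1* (-1.71). In the latent complex and activation list, 1 of the 7, 11 of 16 pairs were lower, against 47.8% of all pairs. The median was -0.52, against 0.03 over all pairs. Of the 16, 3 were at least 2-fold lower, against 7.25% of all pairs, and 1 at least 2-fold higher, against 8.58%. A lower pair was found on each fibrillin gene, *Fbn1* at 11.0 and 5.33 (-1.05) and *Fbn2* at 35.4 and 12.4 (-1.51). *Lrrc32*, which holds latent TGF-beta on the cell surface, was higher in an exon (8.45 and 29.0, 1.78) and lower in the 3'-UTR (56.9 and 9.38, -2.60).

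Of the ligands outside the rule, only *Inha*, *Inhba* and *Inhbb*, the inhibin and activin subunits, had peaks. Their 9 pairs had a median log2 ratio of 0.03. Only 1 was past 2-fold, the 5'-UTR pair of *Inha*, at 406 in sham and 112 in CCI, a log2 ratio of -1.86. Of 11 co-receptor pairs, 6 were higher and 5 lower, with a median of 0.11. Past 2-fold were 1 higher pair, on *Neo1* (5.81 and 12.5, 1.11), and 1 lower, on *Rgma*, its repulsive guidance ligand and a BMP co-receptor (19.2 and 7.64, -1.33). The *Neo1* peaks were weakly supported, with log10 FDRs of -2.13 and -2.64. Of 50 pairs of the intracellular regulators, with a median log2 ratio of 0.03, 4 were 2-fold lower, near the share of all pairs, on *Ctdsp1* (44.2 and 4.47, -3.31), *Map3k7* (15.1 and 3.65, -2.05), *Zfyve16* (7.17 and 2.78, -1.37) and *Rnf111* (23.2 and 10.9, -1.09). *Ctdsp2*, a Smad phosphatase like *Ctdsp1*, was higher (23.2 and 70.4, 1.60). Support was weak for both *Rnf111* peaks (log10 FDRs -4.93 and -2.17) and the CCI peak of *Zfyve16* (-4.24). Of 41 pairs of the nuclear partners, 20 were higher and 20 lower, with a median log2 ratio of 0.00. At least 2-fold higher was 1, on *Zeb1* (3.29 and 10.9, 1.73), against 8.58% of all pairs. At least 2-fold lower were 2, against 7.25%, on *Zeb2* (53.5 and 20.3, -1.40) and the acetyltransferase gene *Ep300* (123 and 20.3, -2.60).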

How the data were processed

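Spinal cord RNA from CCI and sham mice was profiled by MeRIP-seq with an m6A antibody. Per the labels, the submitters' processing notes name fastp, HISAT2, HOMER and ChIPseeker and the build GRCm38, without versions. The paper names Cutadapt, bowtie, MACS2 and ChIPseeker instead. Which made the tables is not settled, and although the libraries were strand-specific, whether peak calling used strand is not stated. The fold enrichment in the deposited peak lists is a ratio of IP over input made by the authors, and their log10 FDR of each peak was read as a score. In the differential table the authors' own comparison columns (log2 fold change, p-value and FDR of CCI against sham) were not used, only positions and gene names. Its rows were treated as regions.

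The members and gene lists were chosen with earlier results of these data known. Peaks were paired by shared exonic bases (at least 1 bp, mutual best match) with Python 3.11.15, numpy 2.4.6 and pandas 2.3.3, tested on simulated data. Every gene of the rule was named with its strongest peaks, as was each pair with a log2 ratio of at least 1 either way and the strongest unmatched peaks, and genes outside the rule only at such a pair or in a list of at most 5 genes with a peak. Shares carry 95% Wilson intervals. RefSeq gave names, start windows and overlapping genes. Depth is unknown. Alternatives covered the overlap, minimum fold enrichment, FDR, the fold, centring and the unit counted.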

Additional observations from a re-analysis of the deposited data

How the results depend on the processing

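No paired analysis was possible because a group is a single IP and input library, which also leaves no replicate to omit. Of 96 alternative values, 89 stayed within their tolerance, 6 moved and 1 reversed. The tolerance was 1.5 times a count, 0.1 in log2 for a median and the interval of a share. A single pair past 2-fold had only to keep its sign and stay past 2-fold. Most alternatives for single pairs kept the same peaks or subtracted only the median of 0.03, so their outcome was largely fixed and the 89 do not measure robustness. With at least 50% of both peaks shared, the share of family peaks with a partner was 70.7% in sham and 75.2% in CCI, and the median log2 ratio was 0.12 over 82 pairs. At 1.5-fold in place of 2-fold, 16 pairs were higher and 17 lower, where 18.8% and 16.4% of all pairs were. An alternative chosen after seeing the data, both peaks at an FDR of 1e-05 or less, gave a median of 0.18, and the cause was not tested. Of the 16 pairs past 2-fold, 13 remained pairs at 50% overlap; those of *Smad3*, *Tgfbr2* and *Bmp8b* did not. Leaving out peaks over another gene, or taking the partner of highest fold enrichment, both also chosen after seeing the data, gave 10 or 9 pairs higher and 5 lower. With the partner of highest fold enrichment the *Smad3* CCI peak reversed, to a log2 ratio of -0.51, and the spliced *Tgfb3* pair was lost. Fold enrichments of the groups rest on different inputs and borders.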

Other observations

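Several overlaps outside the matched pairs joined peaks of very different strength. The weak sham peak of *Smad7* at 2.56 lay under the CCI peak at 252, a log2 ratio of 6.62, and the short CCI peak of *Tgfb1* at 2.26 lay under the sham peak at 25.4, a log2 ratio of -3.49. For the overlapping listings at the end of *Ltbp3*, the crossed comparisons gave log2 ratios of 0.80 and -1.90 where the matched ones gave -0.54 and -0.56. Pairs of the family with a peak above an FDR of 1e-05 numbered 18 and had a median log2 ratio of -0.47, beside 0.18 for the 74 pairs with stronger support, and over all genes these medians were 0.00 and 0.03.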
